A study of Mus musculus with 4 samples.

Results

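The mitochondrial ribosomal protein genes of the mouse were taken as the protein-coding genes whose symbol begins with Mrpl or Mrps and a number, with Dap3 added, and 79 of the 53715 rows of the gene count table met this rule. By symbol, 49 belong to the large subunit and 30, Dap3 included, to the small subunit. All 79 passed the filter on low counts and were among the 25565 genes tested. The libraries were made from whole 2-cell embryos of a C57BL/DBA2 background, grown in KSOM medium from zygotes taken from the oviduct. In the knockdown group the zygotes had received siSPENH0335, an siRNA against the transcript SPENH0335, which the series title places among RNAs derived from enhancers. In the control group they had received siNC, the control siRNA. Both siRNAs were injected at 20 μM, and each group has 2 libraries of polyadenylated RNA, sequenced from cDNA that had been amplified beforehand. The sources used here do not say how many embryos went into a library or whether the libraries of a group came from separate collections, so the p-values measure only the spread between these libraries.

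The mitochondrial ribosome is built from proteins encoded in the nucleus and from rRNAs encoded in mitochondrial DNA, and it translates only the few mRNAs of the mitochondrial genome, all for subunits of the respiratory chain and ATP synthase. Some of its proteins have counterparts in bacterial ribosomes and others were gained during the evolution of mitochondria. In mammals the early embryo lives on mitochondria inherited from the oocyte, and the 2-cell stage in the mouse is when the embryonic genome is switched on while maternal mRNA is being cleared. Promoters of nuclear genes for mitochondrial proteins are known for binding sites of NRF1, of ETS family factors such as GABPA, and of YY1.

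The library totals were 94257563 and 99011109 counts in the knockdown libraries and 87900405 and 78865491 counts in the control libraries. Markers of the 2-cell stage summed to 1894 and 2076 CPM (counts set to a common library size) in knockdown libraries and 1670 and 1692 CPM in control libraries. Markers of oocytes and early embryos summed to 2785 and 2896 CPM in knockdown libraries and 2915 and 3023 CPM in control libraries. All 8 markers of the first list and all 6 of the second had counts in every library. At an unadjusted p under 0.05 in edgeR, 3 markers of the 2-cell stage were higher in knockdown libraries, where 1.56% of all genes were. These 3 were all Zscan4 genes. In the same list Tdpoz4 was lower, with 9.99 and 3.77 CPM in knockdown libraries against 12.6 and 10.1 CPM in control libraries. At the same threshold 1 marker each was lower for oocytes and early embryos (Gdf9), cumulus and granulosa cells (Has2), and blood, oviduct and stroma (Krt7). So were 2.29% of all genes. None of these markers passed adjustment. Gdf9 had 273 and 299 CPM in knockdown libraries against 387 and 369 CPM in control libraries. Of the 6 markers of its list, 1 had a log2 fold change above 0 and 5 below. Of 8 cumulus and granulosa markers, Inha was at 0 throughout and Amh at 0 or near it, and the list summed to 46.1 and 63.5 CPM in knockdown libraries and 56.6 and 49.7 CPM in control libraries, most of it from Cyp19a1. Of the 6 markers of this list tested, 4 had a log2 fold change above 0 and 2, Has2 and Foxl2, below. Has2 had 0.932 and 0.458 CPM in knockdown libraries against 2.65 and 2.58 CPM in control libraries. Foxl2 had 0.228 and 0.0213 CPM against 0.891 and 1.10 CPM. Among the 4 above 0, Fshr had 0.798 and 1.24 CPM in knockdown libraries against 0.609 and 0.361 CPM in control libraries. Of 6 sperm markers, Tnp2 was at 0 in both knockdown libraries, and the list summed to 4.16 and 3.85 CPM in knockdown libraries and 6.64 and 5.61 CPM in control libraries. Of 6 markers of blood, oviduct and stroma, Hbb-bs was at 0 throughout. The list summed to 7.24 and 4.32 CPM in knockdown libraries and 8.503 and 23.5 CPM in control libraries. Most of the sum in control replicate 2 was from Lyz2, at 19.4 CPM there and 4.18 CPM in control replicate 1. Lyz2 had 4.19 and 1.44 CPM in knockdown libraries. The part of these differences in the results below was not tested. SPENH0335 has no row of its own in the gene table, so the knockdown itself was not analysed here. In libraries of whole embryos, fewer cells of a type and less RNA per cell cannot be told apart.

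Promoter stretches of 7 of the genes are shown to make the letters of the known binding motifs visible, beside the pair with the smallest p-values in the comparison of the groups, Mrpl28 and Mrps5, whose stretches shown hold none of them. The stretch of Mrps5 has 46 bases where the others have 90, because the RefSeq window begins there, and YY1 letters lie at bases 2 to 8 after the RefSeq start of that gene, outside what is shown. The sequences are from RefSeq (GRCm38.p6) and end at the base before the first annotated start of the gene. They are written 5′ to 3′ on the strand of the gene. Capitals mark NRF1 letters (GCGCNTGCG) or ETS letters (CCGGAAG), on either strand.
Mrpl28, chr17:26123410-26123499, plus strand: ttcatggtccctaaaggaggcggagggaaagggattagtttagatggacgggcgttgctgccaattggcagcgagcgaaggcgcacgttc
Mrps5, chr2:127587176-127587221, plus strand: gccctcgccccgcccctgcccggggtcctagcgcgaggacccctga
Mrpl12, chr11:120484523-120484612, plus strand: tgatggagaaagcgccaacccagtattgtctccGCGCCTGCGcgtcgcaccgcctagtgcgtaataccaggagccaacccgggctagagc
Mrpl22, chr11:58171571-58171660, plus strand: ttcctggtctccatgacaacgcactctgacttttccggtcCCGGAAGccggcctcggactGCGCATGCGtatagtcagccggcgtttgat
Mrpl45, chr11:97315626-97315715, plus strand: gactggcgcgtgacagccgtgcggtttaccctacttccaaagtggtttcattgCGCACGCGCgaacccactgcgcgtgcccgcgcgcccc
Mrps18a, chr17:46110896-46110985, plus strand: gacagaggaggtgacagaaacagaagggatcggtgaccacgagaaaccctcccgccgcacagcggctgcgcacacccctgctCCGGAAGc
Mrps22, chr9:98601680-98601769, minus strand: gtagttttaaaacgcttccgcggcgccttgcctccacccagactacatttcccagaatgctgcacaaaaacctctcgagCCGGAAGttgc

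These letters, and neighbours that start from the same short stretch of DNA, were more frequent in the family than in protein-coding genes at a mean of at least 10 CPM, as shares and with no test. RefSeq promoters, from 250 bases before to 50 bases after the start, were at hand for 69 of the 79 genes. NRF1 letters were in 18 of them (26.1%), against 17.5% of the promoters of protein-coding genes at a mean of at least 10 CPM and 7.12% of all 27025 promoters. ETS letters were in 26 (37.7%), against 21.8% and 9.93%. YY1 letters (ATGGCGG) were in 13 (18.8%), against 9.94% and 4.69%. Both strands were searched for each motif, and a match describes letters, not a bound site. At least 1 of the 3 motifs was in 44 of the 69 promoters (63.8%), against 40.8% and 18.6%. The median GC content was 58.0% in the family's promoters, 60.67% in those of protein-coding genes at 10 CPM or more and 52.75% in all. By subunit, the large and small genes held NRF1 letters in 30.2% and 19.2% of promoters and ETS letters in 34.9% and 42.3%.

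The 79 genes lie on 17 chromosomes, with 11 on the chromosome that has most. A protein-coding gene on the other strand began within 1000 bp of the start of 34 of them (43.0%), against 16.8% of 7454 protein-coding genes at 10 CPM or more and 13.2% of 17050 protein-coding genes tested. Several of these partners act in mitochondria too. Mrpl43 and Twnk, which encodes the helicase of mitochondrial DNA, overlap at their starts by 779 bp, and Mrps12 lies 172 bp from Sars2, the mitochondrial seryl-tRNA synthetase. Mrpl36 and Ndufs6, and Mrpl47 and Ndufb5, pair a ribosomal protein with a protein of respiratory complex I. Mrpl46 and Mrps11, on chromosome 7, are the pair in which both partners belong to the family, a large and a small subunit gene whose starts overlap by 412 bp. Mrps5 starts 128 bp from Zfp661.

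**Figure D1:**
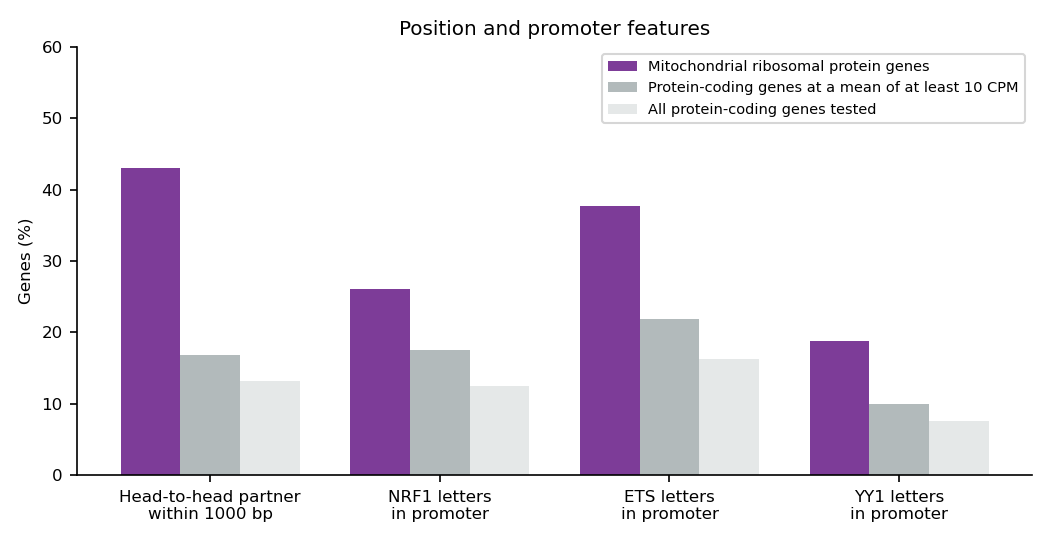
Share of genes (%) with a head-to-head protein-coding partner within 1000 bp and with letters of NRF1, ETS factors or YY1 in the promoter, for the mitochondrial ribosomal protein genes and for protein-coding genes of comparison. The family stands at 43.0% for partners and 37.7% for ETS letters, above 16.8% and 21.8% in protein-coding genes at a mean of at least 10 CPM.

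Messenger RNA for the family was present in all 4 libraries. Levels are CPM after TMM scaling, which corrects for library composition. The family took 0.246% and 0.237% of all counts in the knockdown libraries and 0.239% and 0.247% in the control libraries. The shares of single genes in the summed counts, which weigh long transcripts more, were larger in the small subunit. That subunit has 30 genes against 49 in the large, and the part of list size in these shares was not tested. Mrps14 made up 19.6% of the small subunit sum, and Mrps14, Mrps33 and Dap3 together 46.4%. Mrpl48 made up 10.1% of the large subunit sum, and Mrpl48, Mrpl18 and Mrpl24 together 26.6%.

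**Figure D2:**
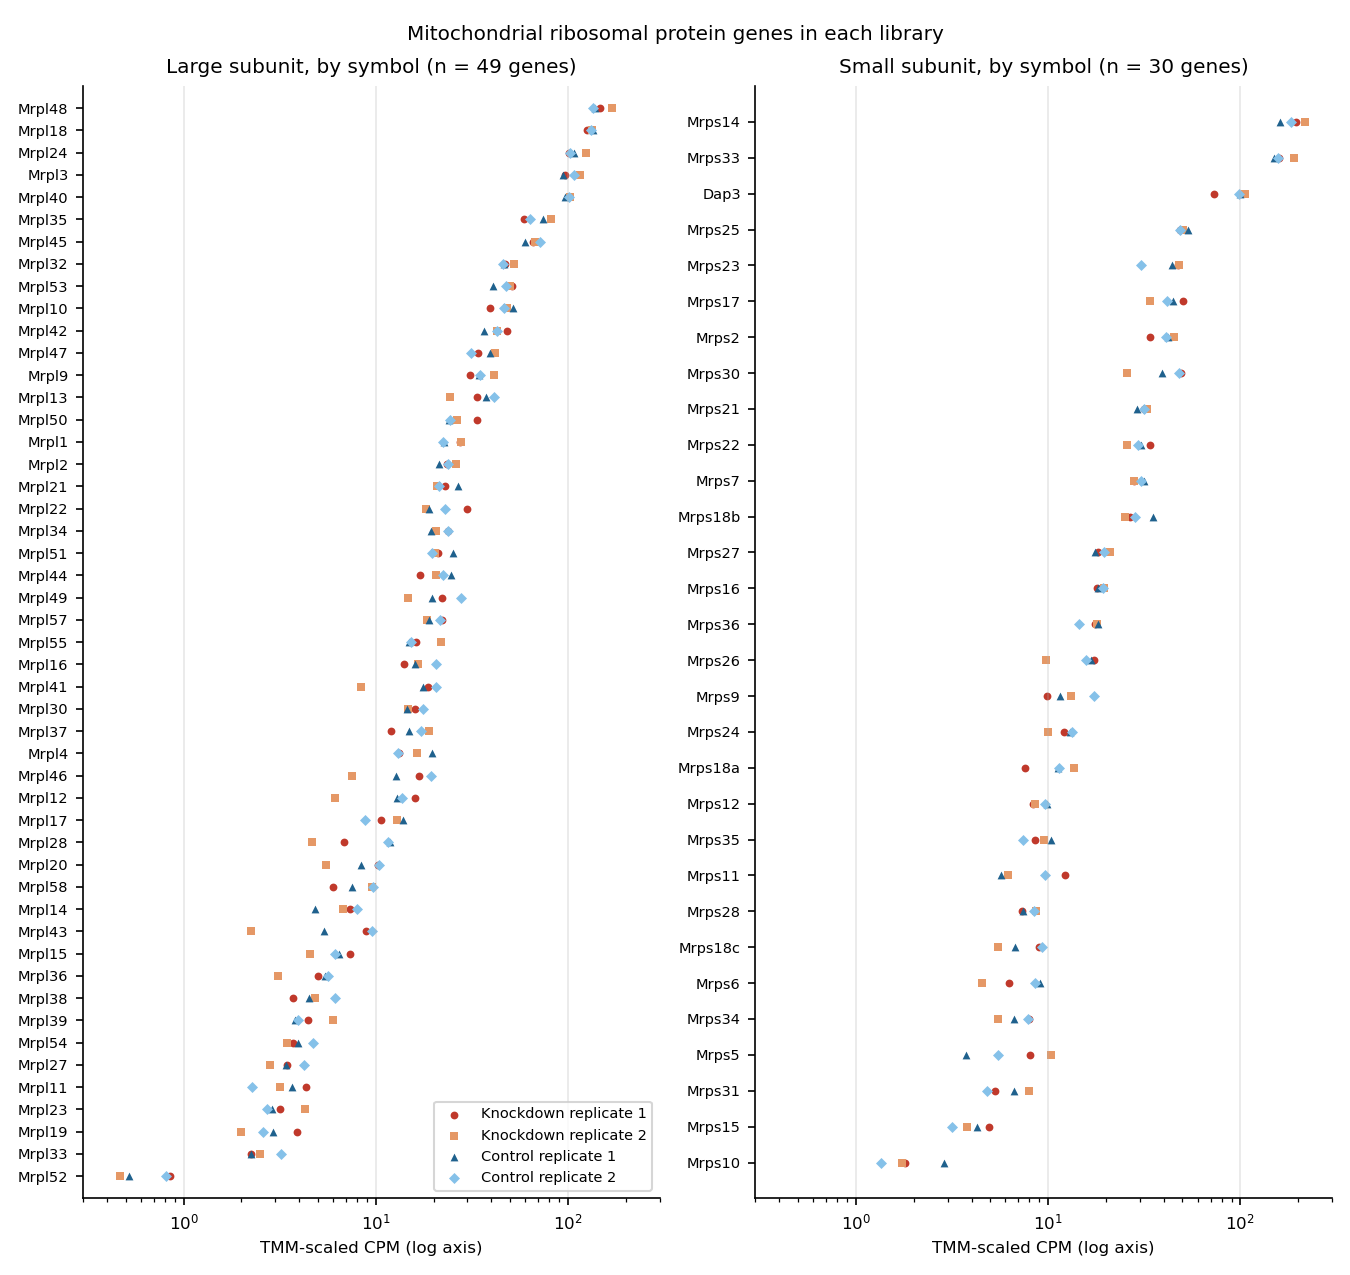
TMM-scaled CPM (log axis) of each mitochondrial ribosomal protein gene in each of the 2 knockdown and 2 control libraries, one panel per subunit. The mean CPM, uncorrected for gene length, runs from 0.661 for Mrpl52 to 189 for Mrps14, and the points of the 2 groups lie together for most genes.

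Between genes, levels were compared per kilobase of exon. Over the union of all annotated exons, the medians were 7.08 CPM per kilobase for the large and 7.29 CPM per kilobase for the small subunit. The range within the family was 408-fold per kilobase. The highest large subunit genes per kilobase were Mrpl18, whose product uL18m is part of the central protuberance, at 94.2, Mrpl53 at 59.8 and Mrpl40 at 57.1. The highest small subunit genes were Mrps33 at 98.2, Mrps14 at 58.1 and Mrps21 at 42.2. Mrps33 had 159.2 and 190.2 CPM in knockdown libraries against 148.9 and 156.6 CPM in control libraries, without overlap. Mrpl18 had 125.8 and 134.2 CPM in knockdown libraries against 134.7 and 131.9 CPM in control libraries, and the groups overlapped. Mrpl40 had 101.3 and 102.5 CPM in knockdown libraries against 96.83 and 101.7 CPM in control libraries, again with overlap. Of the exon length of Mrpl53, 88.0% lies under the exons of Gm42688 on the same strand, so its level is uncertain.

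The lowest large subunit genes, in CPM per kilobase of exon union, were Mrpl52 at 0.596, Mrpl19 at 0.524 and Mrpl33 at 0.348. The lowest small subunit genes were Mrps5 at 1.05, Mrps35 at 1.03 and Mrps10 at 0.240. Mrpl52 had 0.849 and 0.469 CPM in knockdown libraries against 0.519 and 0.809 CPM in control libraries, and the groups overlapped. Part of this order depends on the length by which the counts are divided. With the same counts of the whole gene divided by the length of the principal transcript alone, Mrpl33 stood at 5.34 and Mrps10 at 1.91. The medians on this scale were 12.1 for the large and 10.3 for the small subunit. Reads outside the principal transcript stay in these values. The range was then 259-fold. Of the 10 highest genes, 8 were shared by both lengths.

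Knockdown of SPENH0335 was followed by no change in the family that passed the test. In the edgeR quasi-likelihood test with Benjamini-Hochberg adjustment over all genes, 0 of the 79 genes passed an adjusted p of 0.05, as did 0 of all 25565 genes (0%). At an unadjusted p under 0.05 there was 1 gene higher in knockdown libraries, Mrps5, where 1.56% of all genes were, and 1 lower, Mrpl28, where 2.29% were. Together they made up 2.53% of the family, against 3.85% of all genes. The fitted log2 fold change was above 0 in 37 genes and below 0 in 42, with a median of -0.03 in the family and -0.0025 in all genes tested. Among the 52 genes at 10 CPM or more, 26 had a value above 0 (50%), against 55.4% of all 8185 genes of that level, and none had an unadjusted p under 0.05, against 2.72%.

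**Figure D3:**
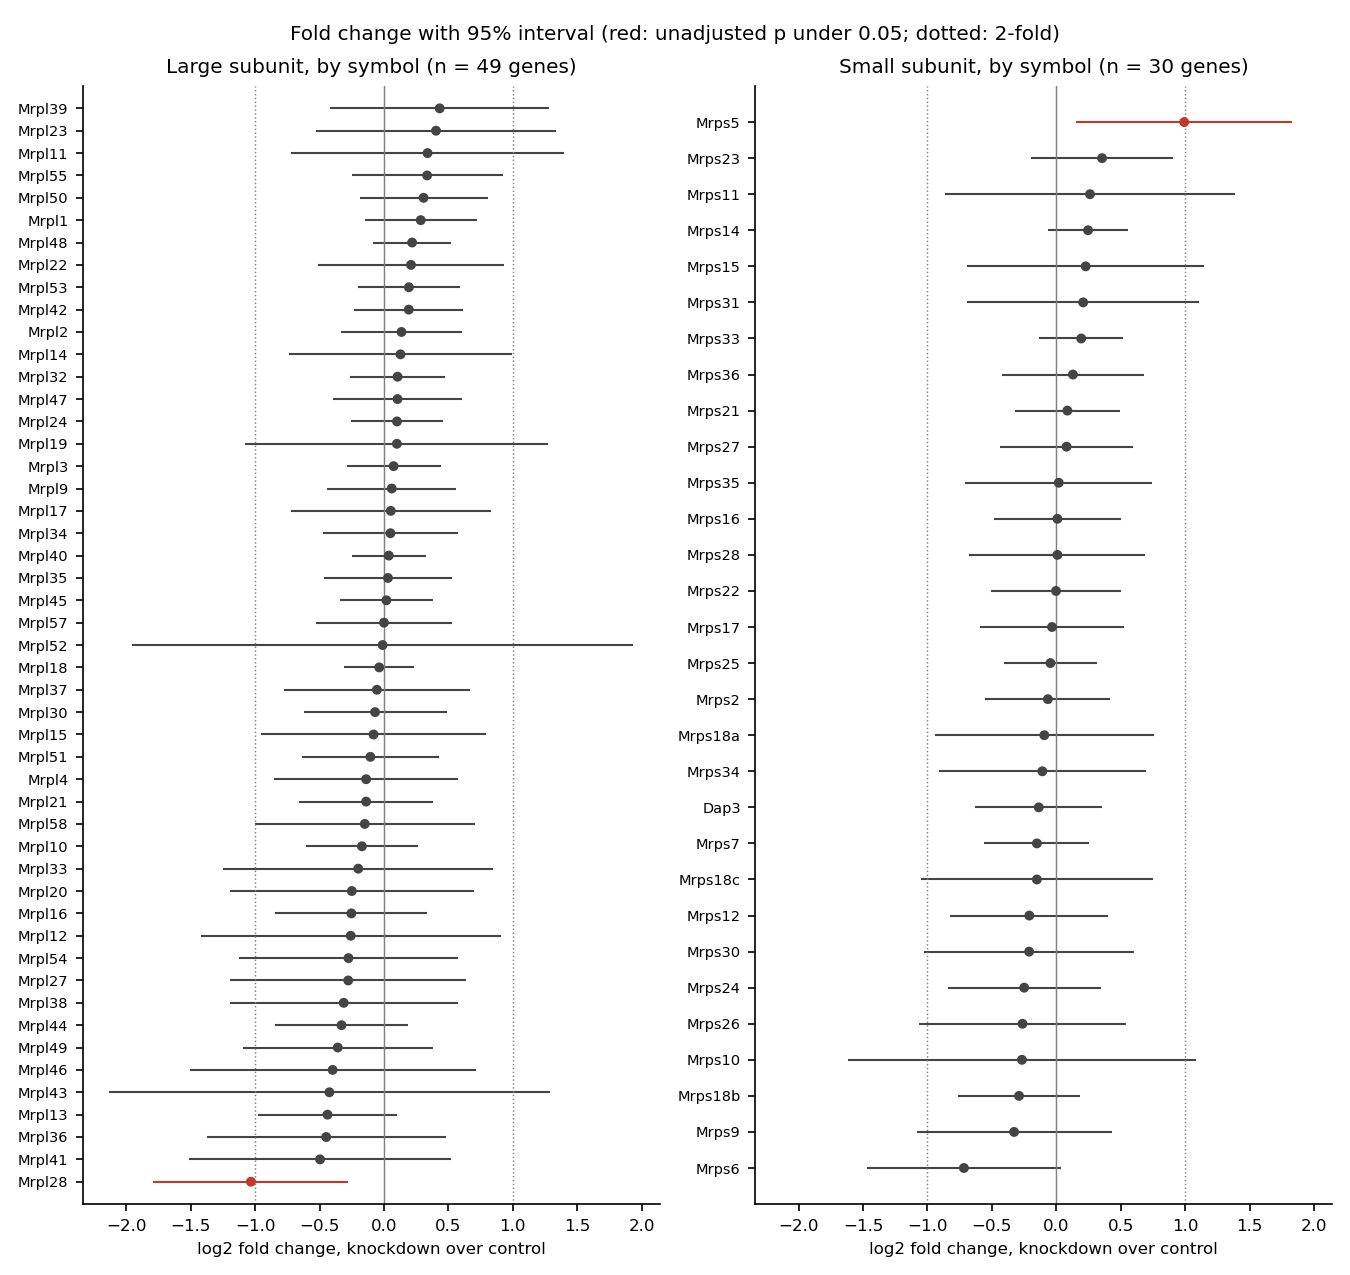
Log2 fold change, knockdown over control, of each gene with its 95% interval, one panel per subunit. The values run from -1.03 for Mrpl28 to 0.99 for Mrps5, and the intervals of 51 of the 79 genes lie within a 2-fold change either way.

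The interval of the change shows how large a shift these libraries could have hidden. For 51 of the 79 genes (64.6%) the 95% interval lay wholly within a 2-fold change either way. At 10 CPM or more it did so for 45 of 52 genes (86.5%), against 87.8% of all genes of that level. The tightest was Mrpl18, with a log2 fold change of -0.04 and a 95% interval of -0.31 to 0.24. The widest was Mrpl52, the gene of the family with the lowest mean CPM uncorrected for length, with an interval of -1.96 to 1.94. Both knockdown libraries lay above both control libraries in 13 genes and below both in 10, which is 29.1% of the family, against 15.6% and 17.1% of all genes, 32.7% together.

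Mrps5 encodes uS5m, a protein near the decoding site of the small subunit. It had 780 and 971 counts in knockdown libraries and 332 and 443 counts in control libraries, or 8.08 and 10.3 CPM against 3.74 and 5.51 CPM. Both knockdown libraries were above both control libraries. The log2 fold change was 0.99 (SE 0.34, 95% interval 0.15 to 1.83, adjusted p = 1.00 in the edgeR quasi-likelihood test). The gene (ENSMUSG00000027374.12) lies at chr2:127587222-127606829 on the plus strand of GRCm38, and no exon of another gene overlaps its own.

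Mrpl28 encodes bL28m, a large subunit protein with a bacterial counterpart. It had 663 and 437 counts in knockdown libraries and 1058 and 935 counts in control libraries, or 6.87 and 4.65 CPM against 11.9 and 11.6 CPM. Both knockdown libraries were below both control libraries, which were close to each other. The log2 fold change was -1.03 (SE 0.30, 95% interval -1.79 to -0.28, adjusted p = 1.00 in the edgeR quasi-likelihood test). The gene (ENSMUSG00000024181.8) lies at chr17:26123500-26126613 on the plus strand of GRCm38, and no exon of another gene overlaps its own. Without control replicate 1, neither Mrps5 nor Mrpl28 kept an unadjusted p under 0.05; without control replicate 2 only Mrps5 did, and without knockdown replicate 2 only Mrpl28 did. Such a fit has 1 library in a group, which is assumed to vary as the other group does. Over all 4 of these fits the log2 fold change was -1.34 to -0.77 for Mrpl28 and 0.74 to 1.30 for Mrps5. DESeq2 called 0.169% of the genes for which it gave an adjusted p and none of the family. It gave Mrpl28 an adjusted p of 0.337 and Mrps5 one of 0.561.

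Of the genes next in order of p, those with higher fitted values in knockdown libraries included Mrps14 and Mrpl48, the genes of the highest CPM in their subunits before any correction for length. Mrps14, the small subunit head protein uS14m, had 194.3 and 216.3 CPM in knockdown libraries against 161.8 and 184.4 CPM in control libraries, and the groups did not overlap (log2 fold change 0.25, SE 0.12, adjusted p = 1.00 by edgeR). Mrpl48, a protein of the central protuberance of the large subunit, had 147.7 and 169.7 CPM in knockdown libraries against 138.1 and 134.7 CPM in control libraries (log2 fold change 0.22, SE 0.12, adjusted p = 1.00 by edgeR). The start of Mrpl48 overlaps that of Rab6a, a Golgi GTPase gene on the other strand, over 708 bp of exon. Rab6a had 241.7 and 281.4 CPM in knockdown libraries against 227.8 and 223.9 CPM in control libraries. The sources do not name the counting strand, so reads from the overlap cannot be told apart, and its part in the value of Mrpl48 was not tested. Mrpl1, which forms the uL1m stalk, had 27.3 and 27.9 CPM in knockdown libraries against 22.8 and 22.5 CPM in control libraries. Mrps23 had 47.5 and 48.2 CPM in knockdown libraries against 44.4 and 30.4 CPM in control libraries. Mrpl50 had 33.7 and 26.4 CPM in knockdown libraries against 24.1 and 24.5 CPM in control libraries. In all 3 the groups did not overlap, by a narrow margin in Mrps23 and Mrpl50.

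Lower fitted values were found in the next 5 genes. Mrps6, a small subunit protein with a bacterial counterpart, had 6.25 and 4.53 CPM in knockdown libraries against 9.12 and 8.59 CPM in control libraries, without overlap (log2 fold change -0.72, SE 0.30, adjusted p = 1.00 by edgeR). Mrpl13 had 33.8 and 24.2 CPM in knockdown libraries against 37.3 and 41.3 CPM in control libraries, also without overlap (log2 fold change -0.44, SE 0.22, adjusted p = 1.00 by edgeR). Mrpl44, a large subunit protein of the RNase III fold that is mutated in human cardiomyopathy, had 17.0 and 20.5 CPM in knockdown libraries against 24.6 and 22.4 CPM in control libraries, again without overlap. Mrps18b had 26.7 and 25.3 CPM in knockdown libraries against 35.0 and 28.4 CPM in control libraries, without overlap, and 30.5% of its exon length lies across from the antisense gene Gm16279. Mrpl41 had 18.8 and 8.35 CPM in knockdown libraries against 17.6 and 20.7 CPM in control libraries, so its groups overlapped through the higher knockdown library.

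The next genes were chosen for their role. Mrpl12 encodes a stalk protein that in humans also binds the mitochondrial RNA polymerase. It had 16.05 and 6.14 CPM in knockdown libraries against 12.9 and 13.7 CPM in control libraries. Mrpl11 had 4.351 and 3.195 CPM in knockdown libraries against 3.69 and 2.28 CPM in control libraries. Mrpl58, a peptidyl-tRNA hydrolase that became part of the large subunit, had 5.98 and 9.55 CPM in knockdown libraries against 7.53 and 9.69 CPM in control libraries. In these 3 genes the groups overlapped. Mrpl3, a core protein next to the peptidyl transferase centre, had 97.1 and 114.9 CPM in knockdown libraries against 94.0 and 107.3 CPM in control libraries, and Mrpl36 had 5.02 and 3.11 CPM in knockdown libraries against 5.46 and 5.64 CPM in control libraries. The groups overlapped for Mrpl3 and did not for Mrpl36 (log2 fold change -0.45, SE 0.37).

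On the small subunit, Dap3, a GTP-binding protein first known from cell death, had 73.4 and 106.1 CPM in knockdown libraries against 99.23 and 98.03 CPM in control libraries. Mrps12, whose bacterial counterpart controls decoding accuracy, had 8.32 and 8.58 CPM in knockdown libraries against 9.87 and 9.67 CPM in control libraries. Mrps7 had 28.0 CPM in both knockdown libraries against 31.7 and 30.6 CPM in control libraries. For Dap3 the groups overlapped, while Mrps12 and Mrps7 had each knockdown library slightly below each control library, with log2 fold changes of -0.21 (SE 0.25) and -0.15 (SE 0.16). Mrps22, a protein specific to mitochondria, had 33.9 and 25.9 CPM in knockdown libraries against 30.6 and 29.3 CPM in control libraries.

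The 3 Mrps18 genes encode related proteins that sit in different places, as the structures of the ribosome show: the product of Mrps18a is in the large subunit, and those of Mrps18b and Mrps18c are in the small subunit. Mrps18a had 7.62 and 13.6 CPM in knockdown libraries against 11.2 and 11.4 CPM in control libraries. Mrps18c had 8.94 and 5.52 CPM in knockdown libraries against 6.74 and 9.31 CPM in control libraries. For Mrps18a the knockdown libraries lay on either side of the control libraries, and for Mrps18c the groups overlapped. Mrps30 is another large subunit protein by structure, and had 49.1 and 25.9 CPM in knockdown libraries against 39.0 and 47.9 CPM in control libraries. Mrps36, which in mammals belongs to the 2-oxoglutarate dehydrogenase complex and not to the ribosome, had 17.6 and 18.1 CPM in knockdown libraries against 18.1 and 14.5 CPM in control libraries.

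The summed levels of the subunits were close in both groups, and the balance between them depended on how they were summed. The large subunit genes summed to 1441 and 1497 CPM in knockdown libraries and 1428 and 1471 CPM in control libraries. The small subunit genes summed to 957 and 1006 CPM in knockdown libraries and 939 and 955 CPM in control libraries. The ratio of the sums, large over small, was 1.51 and 1.49 in knockdown libraries and 1.52 and 1.54 in control libraries, or 1.498 ± 0.012 against 1.53 ± 0.014 (SD, n = 2 each). The ratios of the groups did not overlap on this scale, which is uncorrected for gene length. Per kilobase of exon union the ratio was 1.70 and 1.58 in knockdown libraries and 1.69 and 1.77 in control libraries, and the groups overlapped. Without the gene of the highest CPM in each subunit, Mrpl48 and Mrps14, the ratio was 1.70 and 1.68 in knockdown libraries and 1.66 and 1.73 in control libraries, and the groups overlapped. With subunits set by place in the ribosome, 51 large and 27 small, it was 1.698 and 1.621 in knockdown libraries and 1.697 and 1.736 in control libraries, again with overlap.

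By single genes, the median log2 fold change was -0.01 in the large subunit, with 24 genes above 0 and 25 below, and -0.04 in the small subunit, with 13 above and 17 below. The difference of the medians, 0.03, was smaller than the spread of 0.083 between libraries of 1 group. Without knockdown replicate 1 it was -0.03 and without control replicate 1 it was -0.0088. In the large subunit 8 genes had both knockdown libraries above both control libraries and 5 below; in the small subunit it was 5 and 5. These are 26.5% and 33.3% of the genes, against 32.7% of all genes tested. The genes were also split by the names their products have in structures of the ribosome. The 45 named for a bacterial counterpart had a median log2 fold change of -0.03, with 22 above 0. The 32 named as specific to mitochondria had one of -0.05, with 13 above 0. Mrpl55 and Mrps36 were not assigned. Mrps18a and Mrps18b are among the 32 by name, although related to Mrps18c, which is among the 45.

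**Figure D4:**
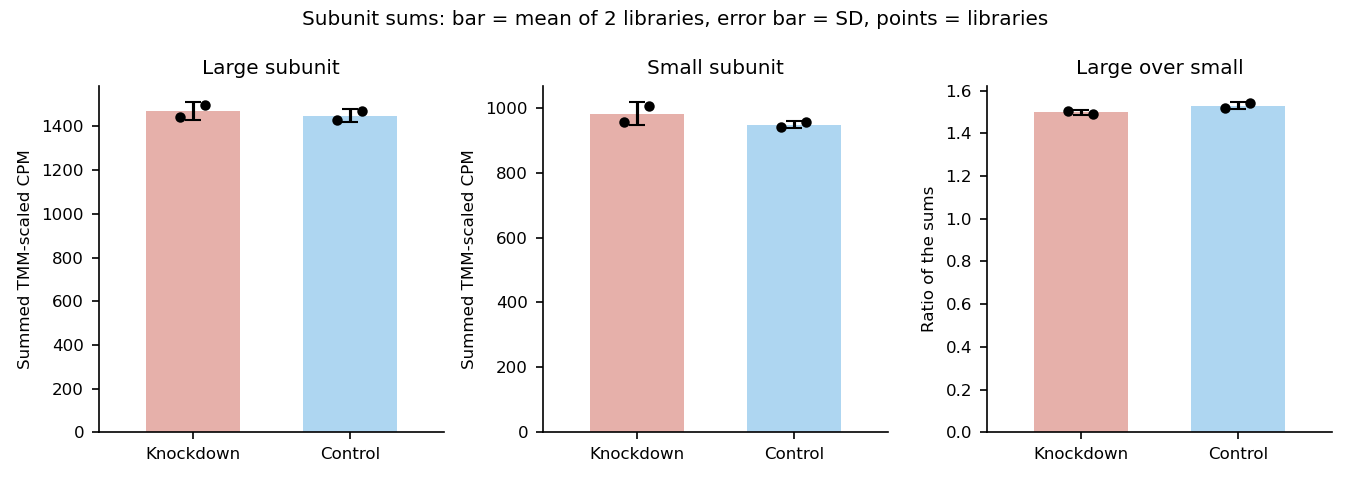
Summed TMM-scaled CPM of the large and the small subunit genes and the ratio of the sums, large over small, with a point for each knockdown library and each control library. The ratio lies at 1.51 and 1.49 in knockdown libraries and at 1.52 and 1.54 in control libraries.

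The knockdown libraries differed from each other more than the control libraries did. The median absolute log2 difference between replicates was 0.30 in the knockdown group and 0.20 in the control group over the family. At 10 CPM or more it was 0.27 and 0.16 in the family and 0.26 and 0.13 in all genes. The 2 knockdown libraries differed by more than 2-fold in 4 of the 79 genes, all of the large subunit and all lower in knockdown replicate 2. Mrpl43 had 8.90 CPM in knockdown replicate 1 and 2.24 in replicate 2, against 5.40 and 9.54 CPM in control libraries. Of its exon length, 33.4% lies across from exons of Twnk on the other strand, and the part of this in its values was not tested. Mrpl12, Mrpl46 and Mrpl41 were the others, with log2 differences of 1.38, 1.17 and 1.17. In the control group 1 gene differed as much, Mrps10 (log2 difference 1.09). Of all 25565 genes tested, 7962 did so in the knockdown group and 6110 in the control group. At 10 CPM or more it was 3 and 0 of 52 genes of the family, against 344 and 34 of 8185 genes.

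Mrpl46 and Mrps11, the pair with overlapping starts, had the same order of replicates within each group but fitted group differences of opposite sign, with log2 fold changes of -0.40 (SE 0.44) and 0.26 (SE 0.45). Mrpl46 had 16.9 and 7.52 CPM in knockdown libraries against 12.7 and 19.4 CPM in control libraries. Mrps11 had 12.2 and 6.20 CPM in knockdown libraries against 5.66 and 9.69 CPM in control libraries. In both, knockdown replicate 1 was above knockdown replicate 2 and control replicate 2 above control replicate 1. They share 173 bp of exon on opposite strands, whose reads cannot be told apart without a stated strand. Knockdown replicate 2 was the highest library for 26 of the 79 genes of the family (32.9%) and the lowest for 27 (34.2%). Of all genes at 10 CPM or more, it was the highest for 42.6% and the lowest for 24.8%. Only 52 of the 79 genes reach that level, so these shares come from unlike sets. Without knockdown replicate 1, 15 of the 79 genes had an unadjusted p under 0.05, 5 higher and 10 lower, where 13.1% of all genes did. Without knockdown replicate 2 there were 4, where 8.02% of all genes did. Each of these fits has 1 knockdown library, which is assumed to vary as the control libraries do.

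**Figure D5:**
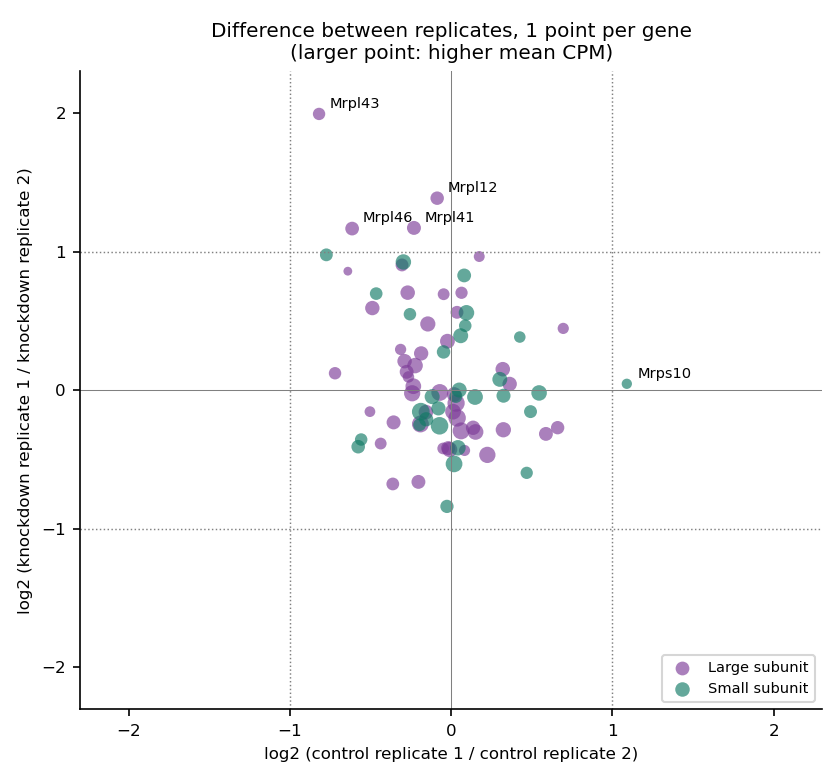
Log2 difference between the 2 knockdown libraries (replicate 1 over replicate 2) and between the 2 control libraries for each gene. Mrpl43, Mrpl12, Mrpl41 and Mrpl46 lie beyond a 2-fold difference between the knockdown libraries, and Mrps10 between the control libraries.

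The rRNAs of the mitochondrial ribosome, which are made in the mitochondrion differed between the groups by less than the spread within them. mt-Rnr2, of the large subunit, had 3474 and 3257 CPM in knockdown libraries against 3475 and 3338 CPM in control libraries, with a log2 fold change of -0.02 (SE 0.071). mt-Rnr1, of the small subunit, had 1351 and 1238 CPM in knockdown libraries against 1287 and 1248 CPM in control libraries, with a log2 fold change of 0.03 (SE 0.083). These libraries were made from polyadenylated RNA, so the values are only of the rRNA recovered in them. How this rRNA was recovered was not tested.

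Of the lists of other genes of mitochondrial translation, none held a gene that passed an adjusted p of 0.05 in edgeR. Among 31 genes for assembly of the mitochondrial ribosome, 2 had an unadjusted p under 0.05, both lower in knockdown libraries, where 2.29% of all genes were: Eral1, a chaperone of the small subunit rRNA, and Ddx28, an RNA helicase of large subunit assembly. Eral1 had 3.48 and 4.83 CPM in knockdown libraries against 7.81 and 8.63 CPM in control libraries (log2 fold change -0.98, SE 0.32, adjusted p = 1.00 by edgeR). Ddx28 had 4.07 and 5.52 CPM in knockdown libraries against 7.94 and 8.98 CPM in control libraries (log2 fold change -0.82, SE 0.31, adjusted p = 1.00 by edgeR). The median over the assembly list was -0.11, with 13 genes above 0, against -0.0025 in all genes tested.

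The other 5 lists next to the family held no gene at an unadjusted p under 0.05. The 4 ribosomal proteins with other symbols had a median log2 fold change of 0.14, all above 0, among them Ptcd3 at 89.0 and 93.0 CPM in knockdown libraries against 87.1 and 79.8 CPM in control libraries, and Chchd1 at 7.31 and 7.42 CPM against 5.33 and 6.47 CPM. Of 14 translation factors tested the median was 0.02; Mtrf1, a release factor, had 12.6 and 9.68 CPM in knockdown libraries against 6.22 and 8.08 CPM in control libraries, and Tufm, the elongation factor, had 1.24 and 0.745 CPM against 2.35 and 1.46 CPM. Of 21 genes of mitochondrial tRNA charging tested, 3 of them (Qrsl1, Gatb and Gatc) for the glutamyl-tRNA amidotransferase and the rest for aminoacyl-tRNA synthetases, the median was -0.01, with Hars2 at 2.06 and 0.905 CPM in knockdown libraries against 2.99 and 4.72 CPM in control libraries and Cars2 at 3.73 and 1.92 CPM against 4.80 and 7.84 CPM. The 9 genes of mitochondrial transcription and DNA replication had a median of -0.20 and the 10 regulators of nuclear genes for mitochondria one of -0.07. Above 0 were 2 of the 9 and 1 of the 10. Of all genes tested 49.7% were above 0, the share to set beside each list here.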

How the data were processed

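Whole 2-cell embryos were sequenced as polyadenylated RNA in 4 libraries, 2 of the SPENH0335 knockdown and 2 of the siNC control. The values are whole-number counts per gene, deposited by the authors with no normalization. Per the submitters' processing notes, the reads went through CASAVA 1.8, Trim Galore 0.6.5, HISAT2 2.1.0 and Picard 2.18.2 on mm10; the counting tool and its strand setting are not given in these sources. Gene IDs were matched to GENCODE M21, which left 95 rows unmatched.

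Counts were tested in edgeR 4.0.16 (R 4.3.3) with filterByExpr, TMM and the quasi-likelihood F-test, knockdown over control with no other term, and p-values were adjusted by Benjamini-Hochberg over all 25565 genes tested at 0.05. The same steps were tested on simulated data. DESeq2 1.42.0, limma 3.58.1 (voom), other scalings and filters, and leaving out each library were alternatives. Levels are TMM-scaled CPM, means over all libraries where 1 value is given, and per kilobase of exon where levels of genes are compared; sums over a subunit are also given uncorrected for length. The genes, the gene lists and the rule for genes named were chosen with earlier results of these data known. The rule took the 6 genes higher and the 6 lower with the smallest p, the 3 highest and 3 lowest per kilobase in each subunit, 15 genes chosen by role, the 2 smallest p-values of 4 related lists and both mitochondrial rRNAs. Mrpl24, Mrpl43, Mrpl46 and Mrps11, the head-to-head partners and the promoters shown were chosen after their values were seen. Motifs were searched in RefSeq promoters. The PCR-amplified libraries have no molecular identifiers, so intervals cover the spread between libraries only. Reads of pseudogene copies of the family (5 rows) came to at most 0.223% of its counts. Exons of 34 of the 79 genes overlap those of another gene, in 9 over at least 20% of their length. The part of shared reads in their levels was not tested. No pair of libraries agreed within sampling noise.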

Additional observations from a re-analysis of the deposited data

How the results depend on the processing

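No gene of the family passed an adjusted p of 0.05 under any alternative; the smallest was 0.187, in edgeR without knockdown replicate 1. Over all genes, DESeq2 called 49 and leaving out 1 library called 0 to 3 in edgeR. The unadjusted count of 2 in the family became 15 without knockdown replicate 1, 4 without knockdown replicate 2, 0 without control replicate 1 and 1 without control replicate 2, and 3 in DESeq2 and limma-voom, which added Mrps6; a group left with 1 library was assumed to vary as the other does. Over the leave-outs the log2 fold change of Mrpl28 ran from -1.34 to -0.77 and of Mrps5 from 0.74 to 1.30, the median of the family from -0.048 to -0.0071 and the difference between subunits from -0.029 to 0.071. Over the genes at 10 CPM or more alone the family median was -0.000975. The log2 change of the subunit ratio was -0.031, and -0.0748 per kilobase of exon union, -0.049 by place in the ribosome, -0.00567 without the gene of the highest CPM in each subunit and -0.055 per kilobase of the principal transcript, the last chosen after seeing the data; the cause was not tested. The labels number the libraries but do not pair them. The difference between replicate 2 and replicate 1 in the knockdown group correlated with that in the control group at -0.207 over 8185 genes. Over the family the correlation was -0.294. With a replicate block, 0 genes were called, the family median was -0.037 and the unadjusted p stayed under 0.05 for Mrps5 and Mrpl28. A block on the crossed numbers, chosen after seeing the data, also called 0. Of the 28 genes whose interval reached beyond a 2-fold change, 7 were at 10 CPM or more; the parts of depth and of spread between libraries in this were not tested.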
